A study of Mus musculus with 12 samples.

Results

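The major urinary protein (Mup) genes were examined in the liver RNA-seq of mice at 3 ages. Members were all gene rows whose GENCODE M21 symbol is Mup followed by a number or Mup-ps, with at least 1 count in any liver. This gave 44 members among 28449 genes with a count, comprising 22 protein-coding genes and 22 pseudogenes, out of 49 such symbols in the annotation. The other 5 (Mup-ps5, Mup-ps24, Mup-ps26, Mup-ps28 and Mup-ps29) were listed at 0 in every liver. Livers came from C57BL/6N mice aged 3 months (young), 12 months (middle-aged) or 18 months, the last called aged here, which the study's methods describe as male, with 4 livers per age and each library from 1 animal. No group carried a transgene, deletion or drug treatment in the labels, and age was the only label that differed. The series' own design text names 3 replicates per age, whereas 4 were labelled, and its preparation text mentions young and old livers without the middle-aged ones.

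Major urinary proteins are small lipocalins that hepatocytes secrete into the blood and that pass into the urine, where they carry volatile pheromones and act as scent signals. Their genes lie in a tandem array of near-identical copies with more divergent copies at its edges, interspersed with pseudogenes. In adult liver their transcription is known to depend on the male pattern of pulsatile growth hormone, acting through its receptor and STAT5b, and on androgens, glucocorticoids and thyroid hormone. Mup20 encodes darcin, a male pheromone that attracts females.

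On GRCm38, 43 of the 44 members lay on chromosome 4 between 59956804 and 62150863, a span of 2194.1 kb, and Mup-ps22 lay on chromosome 11. The coding members at the edges of the array, Mup3, Mup4, Mup5, Mup6, Mup20 and Mup21, are called peripheral here. The remaining 16 coding members, from Mup7 to Mup19 along the chromosome, are called central. Coding sequences of the central members were between 97.0 and 100% identical in pairs, and without Mup19 between 98.5 and 100%, whereas central and peripheral members shared between 82.7 and 91.5%. The same stretch of coding sequence, bases 102 to 191 of the Mup7 coding sequence in GENCODE M21, is given below for the members on which the results turn, read 5′ to 3′, with capitals marking bases that differ from Mup7.
Mup7: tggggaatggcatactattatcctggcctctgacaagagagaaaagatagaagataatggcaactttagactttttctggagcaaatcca
Mup17: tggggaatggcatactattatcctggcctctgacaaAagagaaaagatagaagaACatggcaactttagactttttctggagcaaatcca
Mup11: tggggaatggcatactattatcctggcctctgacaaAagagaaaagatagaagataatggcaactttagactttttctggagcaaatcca
Mup14: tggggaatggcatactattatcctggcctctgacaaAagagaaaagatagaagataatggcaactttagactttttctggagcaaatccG
Mup1: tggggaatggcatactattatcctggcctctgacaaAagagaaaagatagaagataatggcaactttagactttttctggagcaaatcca
Mup20: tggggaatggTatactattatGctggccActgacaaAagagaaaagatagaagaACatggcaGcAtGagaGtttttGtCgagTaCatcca
Mup3: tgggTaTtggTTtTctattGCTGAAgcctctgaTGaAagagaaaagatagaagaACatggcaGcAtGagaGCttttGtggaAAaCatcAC
Mup21: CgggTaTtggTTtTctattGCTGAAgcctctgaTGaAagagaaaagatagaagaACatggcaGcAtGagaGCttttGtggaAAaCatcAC

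Within this window Mup17, Mup11, Mup14 and Mup1 differed from Mup7 at 3, 1, 2 and 1 of 90 bases, and Mup1 and Mup11 had the same letters. Mup20, Mup3 and Mup21 differed from Mup7 at 14, 27 and 28 bases. Reads were 150 bases long by the study's methods, so that a read from this stretch can match several central members. The share of 100-base words of a member's annotated transcripts that occurred in no other member was 97.8% for Mup3, 95.5% for Mup21, 61.2% for Mup20, 40.6% for Mup17, 23.9% for Mup7 and 2.66% for Mup15. It was 0 for Mup19 and Mup22. How reads that match several places were counted is not given in the sources used here, and the level of every central member is uncertain for that reason.

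Counts assigned to genes ranged from 8124312 to 10527159 per liver. The number of genes with a count was 22284 in young replicate 3, 19982 in middle-aged replicate 1 and between 16361 and 17563 in the other livers. Transcripts encoded in the mitochondria took 19.2% of gene counts in young replicate 2 and at most 10.7% elsewhere. The spike-in RNAs separated replicates 1 and 2 from replicates 3 and 4 at every age: over 38 spike-ins the correlation of log2 levels was at least 0.997 between livers of the same set and at most 0.929 between livers of different sets, so values within each set are given for the totals. The 6 hepatocyte markers (such as Alb and Ttr) together had 714606 to 785581 normalised counts per young liver. They had 731008 to 825451 per middle-aged liver and 741462 to 963072 per aged liver. Most of this sum was Alb, at 485654 to 558814 in young livers. Apoa1 was lower in middle-aged than in young livers without overlap, at 74987 to 94395 against 100660 to 120050, and had 59484 to 124573 in aged livers. The other hepatocyte markers overlapped between all ages. The 3 erythroid markers summed to 16870 to 60072 in the young group, 9746 to 35995 at 12 months and 7398 to 15834 at 18 months, and the 4 B or plasma cell markers to 82.0 to 364, 90.4 to 1591 and 363 to 426. The 3 T cell markers summed to 10.2 to 41.5, 11.5 to 18.9 and 5.78 to 9.03 in the same order, without overlap between young and aged livers, the 3 neutrophil markers to 25.4 to 249.6, 5.96 to 28.1 and 10.5 to 85.3, and the 5 Kupffer cell markers to 2216 to 3889.6, 1898 to 2370 and 2268 to 3236. Summed cholangiocyte, stellate and sinusoidal endothelial markers overlapped between all ages. Among single markers, Sox9 of cholangiocytes had 26.5 to 55.7 in young, 34.4 to 47.7 in middle-aged and 72.5 to 84.8 in aged livers. Lyve1 of sinusoidal endothelium had 86.9 to 128.6 in young, 36.7 to 74.2 in middle-aged and 56.8 to 134.6 in aged livers. The other single markers of these types overlapped between all ages. The part of these cell types in the results was not tested. Of the 4 pancreatic enzyme genes examined, Cpa1, Ctrb1 and Pnlip had at most 3.01 normalised counts in any liver. The fourth, Cela1, had 477 to 642 in young, 426 to 541 in middle-aged and 259 to 794 in aged livers.

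The first question was how much Mup transcript the liver held at each age. The share of all gene counts taken by the 44 members was between 2.41 and 3.57% in young livers, between 1.64 and 1.99% in middle-aged livers and between 1.07 and 2.64% in aged livers. The 95% Wilson interval was 1.06 to 1.08% for the lowest, aged replicate 3, and 3.56 to 3.58% for the highest, young replicate 1. Such intervals cover counting error only. Values below are DESeq2-normalised counts, which are counts divided by a factor that aligns the median gene between livers, and those of single livers are listed in the order of replicates 1 to 4. The summed family level was 355304, 372379.6, 314787 and 228762 in the young, 161334, 154639.5, 179458 and 156145 in the middle-aged and 247653, 141829.8, 93885 and 138282 in the aged livers. As mean ± SD over 4 livers this was 317808 ± 64089.6, 162894 ± 11409 and 155412 ± 65248. All middle-aged livers lay below all young ones, and 3 of the 4 aged livers did, with aged replicate 1 above young replicate 4. In bulk tissue, fewer cells of a type and less RNA per cell cannot be told apart. The direction depended on the scale: with spike-in scaling, which raised the median of all 11804 genes considered by 1.24 in aged and 1.57 in middle-aged livers on the log2 scale, the family total was 0.16 and 0.64 higher than in young livers, and it changed by -1.08 and -0.92 relative to that median. With CPM scaling by the total of gene counts the median moved by 0.11 in both and the family total stayed lower. All log2 fold changes below are relative to the median gene.

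Central and peripheral members did not contribute equally to this decrease. The summed central level was 176491, 185379, 148382 and 97385 in the young, 43187, 45597, 55646 and 49156 in the middle-aged and 79043, 34905, 18631 and 38753 in the aged livers. No middle-aged or aged liver reached the lowest young one. The difference of mean log2 totals was -1.97 for aged minus young and -1.61 for middle-aged minus young. Within replicates 1 and 2 these differences were -1.78 and -2.03, and within replicates 3 and 4 they were -2.16 and -1.20. The direction was the same in both sets. With spike-in scaling the central differences were -0.71 and -0.029, or -1.95 and -1.59 relative to the median gene. The summed peripheral level was 178399.9, 186524, 166162 and 131149.6 in the young, 118083, 108953, 123711 and 106907 in the middle-aged and 168519.9, 106882, 75166 and 99401 in the aged livers, a difference of mean log2 totals of -0.61 and -0.52. Within replicates 1 and 2 these were -0.44 and -0.69, and within replicates 3 and 4 they were -0.77 and -0.36. Here the aged livers overlapped the young ones, because aged replicate 1 stood within the young range. With spike-in scaling the peripheral total was higher by 0.65 and 1.06, and changed by -0.59 and -0.50 relative to the median gene. Central members made up 47.3 ± 3.38% of family counts in the young group, 29.7 ± 2.12% at 12 months and 26.1 ± 5.13% at 18 months (SD, n = 4). The totals were chosen with earlier results of these data known and are given without a test.

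**Figure D1:**
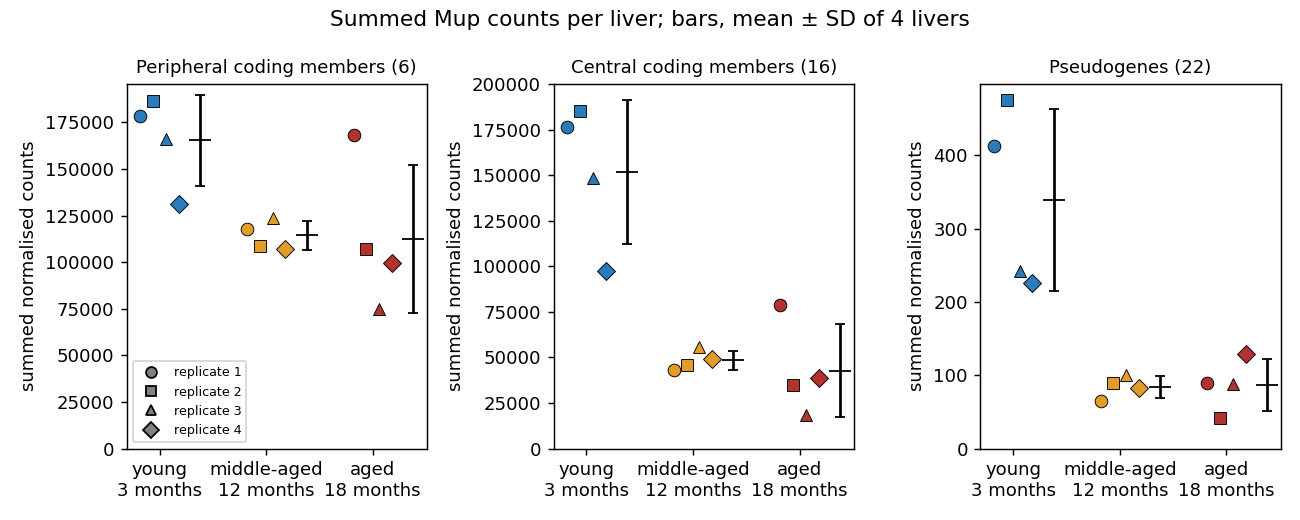
Summed normalised counts (vertical axis, linear from 0) of the 6 peripheral members, the 16 central members and the 22 pseudogenes in each liver, by age group; marker shape gives the replicate number and bars give the mean ± SD of 4 livers. The central total of every middle-aged and aged liver lies below the lowest young liver, whereas the peripheral total of aged replicate 1 lies within the young range; with spike-in scaling the peripheral total is higher, by 0.65 and 1.06 on the log2 scale, in aged and middle-aged livers.

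Single members were then compared between ages with DESeq2, with p-values adjusted over all genes tested. Aged livers had lower levels than young ones for 17 members, and no member was higher. An adjusted p was available for 31 of the 44 members, the rest being too low to be tested. Among the 31, Mup-ps3, Mup-ps4 and Mup-ps19 had means of 21.4, 7.57 and 8.39 in young livers against 3.14, 2.49 and 0.71 in aged livers. They passed the filter on the mean count mostly through the young livers, so the filter favoured a lower value in aged livers. Over all genes tested in this comparison, 1.71% were called lower. The 17 were 12 of the 16 central members (Mup2, Mup7, Mup9, Mup11, Mup12, Mup13, Mup14, Mup15, Mup16, Mup17, Mup18 and Mup19), the peripheral Mup3 and Mup6, and the pseudogenes Mup-ps3, Mup-ps15 and Mup-ps20. Of the 31 members, 14 had every aged liver below every young liver, against 3.69% of all genes tested. With edgeR, 9 of 25 members were called lower, all among the 17, against 0.645% of all genes; Mup3, Mup7, Mup11, Mup12, Mup13, Mup19, Mup-ps3 and Mup-ps15 did not pass there. Replicates 1 and 2 alone gave 9 calls and replicates 3 and 4 alone gave 15. In those fits 137 of 11066 and 482 of 11411 genes were called in either direction, against 484 of 13527 with all livers. When single livers were left out the number ranged from 10, without young replicate 2 or aged replicate 2, to 21 without aged replicate 1, where Mup1, Mup8, Mup20 and Mup21 were called too, and was 11 without aged replicate 3. Calls over all genes moved as well. They were 258 of 13440 without young replicate 2 and 336 of 12878 without aged replicate 2. Without aged replicate 1 they were 1291 of 12350, and without aged replicate 3 they were 237 of 13414.

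Middle-aged livers, set against the same young livers, had lower levels for 14 of the 44 members, of which 23 had an adjusted p. No member was higher. Over all genes tested, 2.9% were called lower. The 14 were the central Mup2, Mup9, Mup13, Mup14, Mup15, Mup16, Mup17, Mup18 and Mup19, the peripheral Mup3, Mup6 and Mup21, and the pseudogenes Mup-ps12 and Mup-ps20. Of these, Mup6, Mup-ps12 and Mup-ps20 had means of 91.4, 31.3 and 163 in young livers against 11.7, 6.72 and 11.9 in middle-aged livers. They passed the filter on the mean count mostly through the young livers, so the filter favoured a lower value for them too. Every middle-aged liver lay below every young liver for 17 of the 23, against 7.96% of all genes tested. With edgeR, 11 of 25 members were called lower, against 0.95% of all genes, and Mup2, Mup13 and Mup-ps12 did not pass. Replicates 1 and 2 alone gave 14 calls and replicates 3 and 4 alone gave 10. In those fits 251 of 11535 and 305 of 8379 genes were called in either direction, against 727 of 11333 with all livers. Without middle-aged replicate 1 the number was 8, as Mup2, Mup6, Mup13, Mup21, Mup-ps12 and Mup-ps20 were lost, and without middle-aged replicate 4 it was 9, as all of these but Mup21 were lost. Calls over all genes were 502 of 8268 and 389 of 7988 in these fits, in that order. Both comparisons share the 4 young livers, so they are not independent of each other.

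Between middle-aged and aged livers DESeq2 called 0 of 44 members, of which 19 had an adjusted p, while 1.14% of all genes tested were called. At an unadjusted p under 0.05 there was 1 member, and edgeR called 0 of 25 (2 at an unadjusted p under 0.05), against 0.107% of all genes. Without aged replicate 1, which held the highest aged level of 13 of the 15 most abundant members, 2 members were called, Mup14 and Mup-ps20, and replicates 3 and 4 alone gave 5, which were Mup8, Mup11, Mup14, Mup20 and Mup-ps20. Calls over all genes were 198 of 10714 and 307 of 12421 in these fits, against 117 of 10236 with all livers. The likelihood ratio test over the 3 ages called 20 of 27 members, against 6.96% of all genes tested.

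Levels per kb of exon placed Mup3 first in young livers, at 83919.5 ± 9537 normalised counts per kb (SD, n = 4), followed by Mup20 at 77833 ± 15873, a difference smaller than the spread. Mup7 followed at 52353 ± 12910.2 and Mup17 at 33581 ± 14183, and Mup11 and Mup14, at 16039.8 ± 1858 and 15422 ± 4992, could not be ordered. In middle-aged livers Mup17, at 1462 counts per kb, ranked below Mup12, at 2848, and Mup21, at 2252, both of which it exceeded in young livers.

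Mup17 (ENSMUSG00000096688, chromosome 4, 61591929 to 61595871, minus strand) was the fourth most abundant member per kb in young livers and among those that decreased most. Normalised counts were 45665, 34093, 30909.9 and 13852 in the young, 1114, 1184, 1817 and 1304 in the middle-aged and 2719.7, 687, 2529 and 4727 in the aged livers. The log2 fold change was -3.55 (SE 0.52, adjusted p = 1.46e-08) for aged against young and -4.52 (SE 0.52, adjusted p = 1.80e-14) for middle-aged against young, that is 11.7-fold and 23.0-fold lower. No aged or middle-aged liver reached the lowest young liver. Among aged livers the highest level stood in replicate 4, and it was the same liver that held the highest aged level of Mup15.

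Mup15, Mup16 and Mup18 are the coding genes on either side of Mup17 and encode proteins of the same central type. Mup15 had 1628, 1592, 1098 and 530.1 in the young, 36.7, 53.0, 75.1 and 62.1 in the middle-aged and 118, 24.1, 100.5 and 190.4 in the aged livers, with log2 fold changes of -3.48 (SE 0.55, adjusted p = 2.36e-07) and -4.42 (SE 0.55, adjusted p = 3.14e-12) for aged and middle-aged against young. For Mup18 the counts were 7287, 6360.3, 4635 and 2277 in the young, 304, 238, 568 and 238 in the middle-aged and 796, 158, 333 and 741 in the aged livers, and its log2 fold changes were -3.34 (SE 0.55, adjusted p = 8.01e-07) and -3.93 (SE 0.55, adjusted p = 9.16e-10). In both genes the groups did not overlap with the young one. Counts of Mup16 were 7403, 9014, 6289 and 2870.2 in the young, 1049, 991, 1377 and 1042 in the middle-aged and 1919.8, 874, 450.1 and 918 in the aged livers, with smaller log2 fold changes of -2.62 (SE 0.44, adjusted p = 1.22e-06) and -2.52 (SE 0.44, adjusted p = 3.19e-06). Only 2.66% of the 100-base words of Mup15 and 12.9% of those of Mup18 were unique within the family, and how far their counts hold reads of other members was not tested.

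Mup9 lies apart from this block, at chromosome 4, 60418046 to 60421952, and its coding sequence was identical to that of Mup18 over 540 aligned bases. It had 1799, 711, 874 and 223 in the young, 34.8, 28.7, 46.8 and 29.1 in the middle-aged and 76.3, 22.2, 50.7 and 71.5 in the aged livers. The log2 fold changes were -4.03 (SE 0.57, adjusted p = 3.65e-09) and -4.69 (SE 0.58, adjusted p = 1.18e-12). All later livers lay below all young livers, but the young livers themselves spread over 223 to 1799 counts. Mup9, Mup15, Mup16, Mup17 and Mup18 were called lower in both comparisons under all 20 alternative settings, as were Mup14 in aged and Mup3 in middle-aged against young livers.

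**Figure D2:**
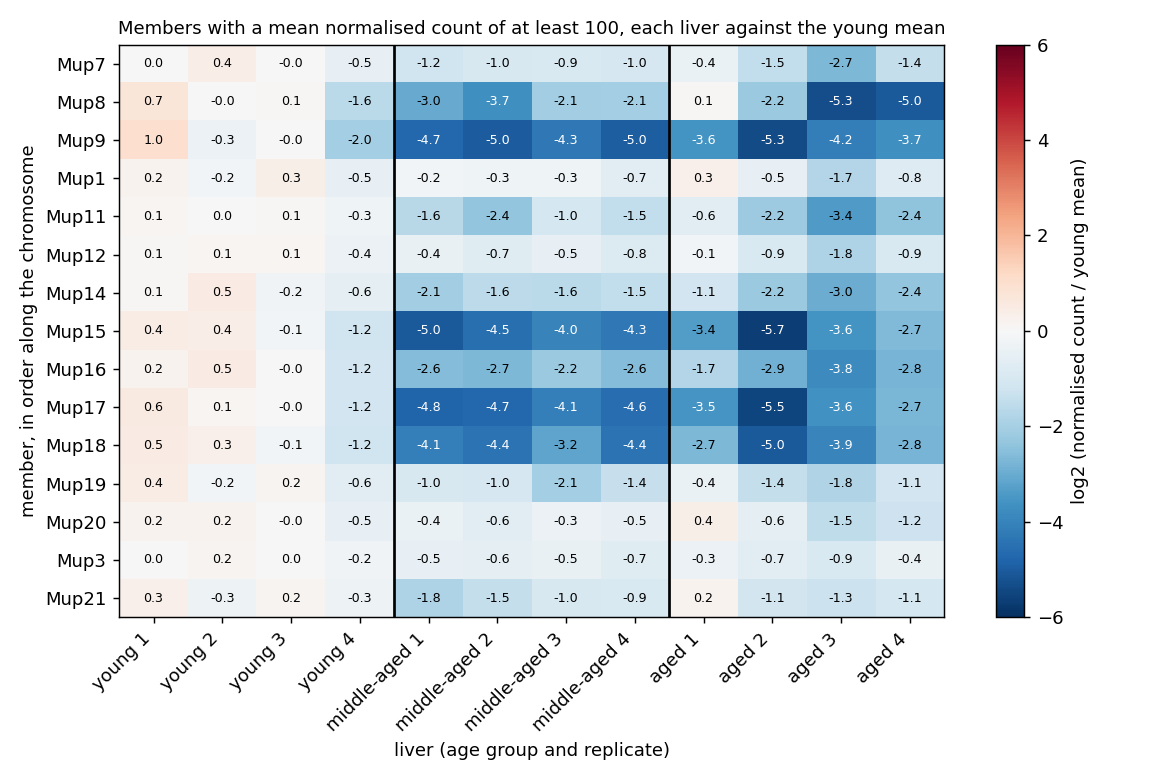
Log2 ratio of each liver's normalised count to the young mean (colour and printed number) for the 15 members whose mean over all livers reached 100 normalised counts, in chromosomal order from top to bottom, with livers grouped by age. Mup9, Mup15, Mup17 and Mup18 are the darkest rows in middle-aged livers and in aged replicates 1 and 2. In aged replicates 3 and 4 the darkest row is Mup8. Mup3 stays within 1 log2 unit of the young mean, and aged replicate 1 is the palest aged liver for most members.

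Mup7, Mup11, Mup12 and Mup14 are abundant central members that decreased less. Mup14 counts were 22494, 30261, 18496 and 14005 in the young, 5025, 7226, 7036 and 7623 in the middle-aged and 9718, 4571, 2708 and 4066 in the aged livers, without overlap with the young livers, and the log2 fold changes were -2.02 (SE 0.41, adjusted p = 1.52e-04) and -1.66 (SE 0.41, adjusted p = 0.00268); in middle-aged livers this call was lost without the 2 libraries with most genes detected. Mup11 counts were 27837, 25980, 26236 and 21062 in the young, 8079, 4854, 12213 and 9053 in the middle-aged and 16391, 5655, 2415 and 4793 in the aged livers, again without overlap. Its log2 fold change was -1.79 (SE 0.55, adjusted p = 0.0351) for aged livers, and -1.56 (SE 0.55, adjusted p = 0.0586) for middle-aged livers did not pass the threshold. Aged replicate 1 had more Mup11 than any middle-aged liver, whereas aged replicate 3 had the lowest level of all 12.

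Mup7 (chromosome 4, 60066469 to 60070475), the most abundant central member, had 54868, 70628, 52791 and 38035 in the young, 23326, 27437, 28594 and 26519 in the middle-aged and 41351, 19749, 8376 and 20188 in the aged livers. Its log2 fold change was -1.27 (SE 0.39, adjusted p = 0.0381) in aged livers, where aged replicate 1 overlapped the young group, and -1.03 (SE 0.39, adjusted p = 0.0872) in middle-aged livers. The second did not pass the threshold, although all 4 middle-aged livers lay below all young ones. Mup12 had 4295, 4399, 4339 and 3137 in the young, 2979.6, 2411, 2868 and 2289 in the middle-aged and 3664, 2140.3, 1125 and 2119 in the aged livers, with log2 fold changes of -0.84 (SE 0.25, adjusted p = 0.033) and -0.62 (SE 0.25, adjusted p = 0.12). In Mup12, aged replicate 1 overlapped the young group. The aged calls of Mup7, Mup11 and Mup12 were kept under 8, 7 and 9 of the 20 alternative settings, and in 3, 3 and 6 of the 12 fits that left out 1 liver, with adjusted p up to 0.206, 0.692 and 0.358. Each was lost without young replicate 1, 2 or aged replicate 2, among others.

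Mup19, Mup1 and Mup8 complete the central members with a mean of at least 100 counts. Mup19 had 1189, 781, 1000 and 573 in the young, 456, 434, 214 and 337 in the middle-aged and 677, 327, 251 and 404 in the aged livers, and its log2 fold changes were -1.10 (SE 0.31, adjusted p = 0.0165) and -1.30 (SE 0.31, adjusted p = 0.00164). The first call was kept under 10 of 20 alternatives and in 6 of 12 fits without 1 liver, with adjusted p up to 0.223, and was lost without young replicate 1, 2 or 3 or aged replicate 2, 3 or 4. The second was lost without young replicate 3. Aged replicate 1 overlapped the young livers. Mup1 ranged from 482 to 855 in the young group, 428 to 605 at 12 months and 203 to 839 at 18 months. Its log2 fold changes of -0.50 (SE 0.31, adjusted p = 0.456) and -0.33 (SE 0.31, adjusted p = 0.589) did not pass the threshold, and the groups overlapped. Mup8 ranged from 201 to 1008 in the young group, from 48.5 to 149 at 12 months and from 15.7 to 642 at 18 months. Its log2 fold changes of -1.61 (SE 1.0, adjusted p = 0.458) and -2.55 (SE 1.0, adjusted p = 0.0993) did not pass the threshold. Aged replicate 1 alone had a Mup8 level within the young range, and the other 3 aged livers had at most 133 counts.

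Among the central members with lower counts, Mup2 and Mup13 were called. Mup2 had a mean of 128 ± 29.8 (SD, n = 4) in young livers, followed by 69.7 ± 18.7 and 57.8 ± 17.7 in the 2 later groups, with log2 fold changes of -1.14 (SE 0.27, adjusted p = 0.00291) and -0.87 (SE 0.27, adjusted p = 0.029) for aged and middle-aged against young. Middle-aged replicates 2 and 3 overlapped the young range of Mup2. Its aged call was kept under 19 of 20 alternatives and lost with replicates 3 and 4 alone. Its middle-aged call was kept under 9 of 20, and was lost with edgeR, without independent filtering, within replicates 1 and 2 or 3 and 4, without the 2 libraries with most genes detected, and without young replicate 1, 2 or 3 or middle-aged replicate 1 or 4. Mup13 had 78.0 ± 61.1, 19.6 ± 5.33 and 24.2 ± 14.3, with log2 fold changes of -1.69 (SE 0.52, adjusted p = 0.0362) and -1.99 (SE 0.52, adjusted p = 0.00627). These calls were kept under 12 and 14 of 20 alternatives. Both were lost with edgeR, with replicates 3 and 4 alone and without young replicate 2, the aged one also without independent filtering, with replicates 1 and 2 alone and without aged replicate 2, 3 or 4, and the middle-aged one without middle-aged replicate 1, 2 or 4. Mup22 had 22.1 ± 6.67, 18.0 ± 4.85 and 18.3 ± 5.77 counts and was not called, and Mup10 was at or near the floor of 3 counts at all ages.

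Mup3 (chromosome 4, 62083476 to 62087342), of which 97.8% of 100-base words were unique, had 90323, 101223, 90576 and 76383 in the young, 62876, 60457, 64961 and 54072 in the middle-aged and 71259, 56372, 48253 and 66756 in the aged livers. Its log2 fold changes of -0.56 (SE 0.13, adjusted p = 0.00115) and -0.56 (SE 0.13, adjusted p = 8.14e-04) were small beside those of the central members, but the livers of each age spread little and neither later group overlapped the young one. In edgeR the adjusted p was 0.0607 and 0.0475. The difference between aged and middle-aged livers was 0.0016 (SE 0.13).

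Mup20 (chromosome 4, 62050234 to 62054158), which encodes darcin, had 83513, 82279, 71436 and 51687 in the young, 54191, 47163, 56879 and 50899.7 in the middle-aged and 93000.1, 48831, 25414 and 30896 in the aged livers. The groups overlapped, and the log2 fold changes of -0.54 (SE 0.37, adjusted p = 0.509) and -0.47 (SE 0.37, adjusted p = 0.491) did not pass the threshold. The highest level of all 12 livers and the lowest were both in aged livers, in replicates 1 and 3. Without aged replicate 1 the decrease in aged livers was called.

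Mup21 (chromosome 4, 62147932 to 62150863) had 4465, 2943, 4094 and 2919 in the young, 1007, 1318, 1849 and 1924 in the middle-aged and 4229, 1675, 1493 and 1739.5 in the aged livers. It was lower in middle-aged livers, with a log2 fold change of -1.24 (SE 0.37, adjusted p = 0.0193) and no overlap. In aged livers the value was -0.66 (SE 0.37, adjusted p = 0.38), and aged replicate 1 stood within the young range while the other 3 lay below it. The middle-aged call was kept under 13 of 20 alternatives, with adjusted p up to 0.22, and was lost without young replicate 1 or 3 or middle-aged replicate 1 or 2, and without the 2 libraries with most genes detected, and with replicates 1 and 2 alone. Mup6 (59964294 to 60007274, plus strand), at the other end of the array, shared no 100-base word with another member. Its counts were low, at 84.9, 73.9, 49.8 and 157 in the young, 4.96, 13.5, 19.4 and 9.02 in the middle-aged and 32.1, 2.89, 3.5 and 5.36 in the aged livers, and it was called in both comparisons, with log2 fold changes of -3.07 (SE 0.65, adjusted p = 3.85e-04) and -2.96 (SE 0.65, adjusted p = 5.55e-04). No later liver reached the lowest young one. The aged call was lost with replicates 1 and 2 alone. The middle-aged call was lost with replicates 3 and 4 alone and without young replicate 1 or middle-aged replicate 1, 2 or 4. Mup4 and Mup5 had means of at most 4.63 normalised counts at any age and were not tested.

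**Figure D3:**
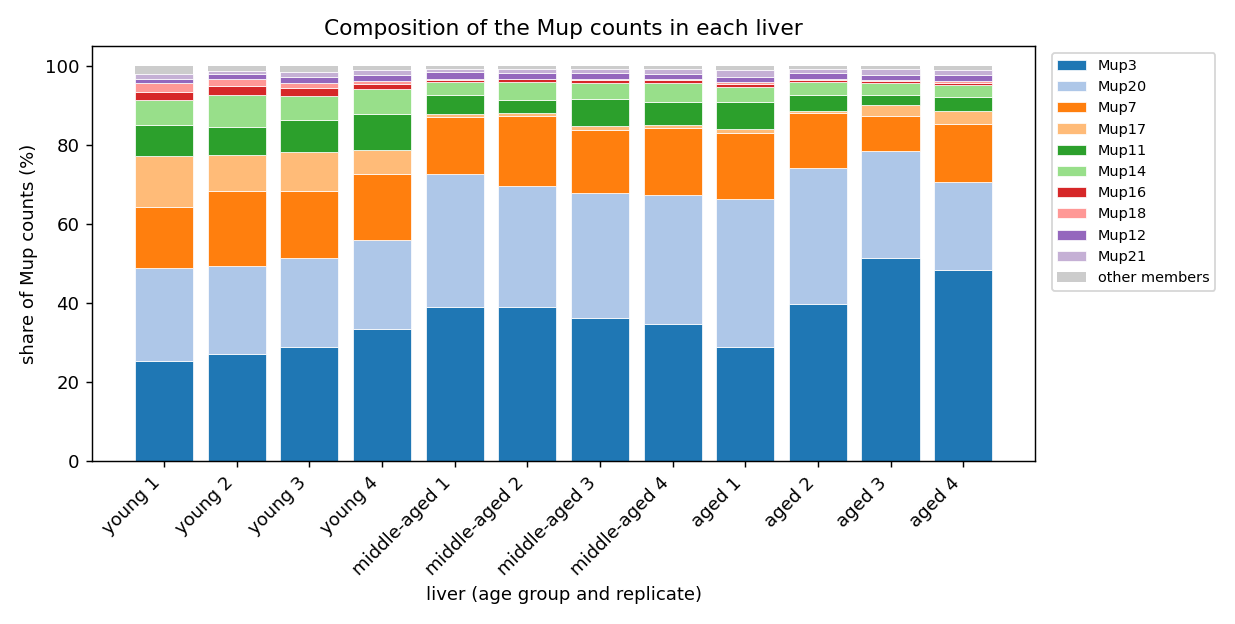
Share of Mup counts (%) taken by the 10 members with the highest shares in young livers and by all other members, one bar per liver. Mup17 takes 6.06 to 12.9% in young livers, 0.691 to 1.0% in middle-aged livers and 0.484 to 3.42% in aged livers, while Mup3 and Mup20 together fill most of each later bar.

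The make-up of the Mup counts differed between livers of different ages. Mup17 made up 9.47 ± 2.79% of family counts in young livers (SD, n = 4), 0.826 ± 0.138% in middle-aged and 1.92 ± 1.36% in aged livers. For Mup7 the corresponding shares were 17.0 ± 1.47, 16.3 ± 1.4 and 13.5 ± 3.29%, and for Mup3 they were 28.7 ± 3.42, 37.2 ± 2.19 and 42.0 ± 10.1%. Mup7 and Mup17 are both central members, with coding sequences that differed at 7 of 540 aligned bases. The ratio of Mup17 to Mup7 counts within a liver, which no scaling between livers can change, was 0.832, 0.483, 0.586 and 0.364 in the young, 0.0478, 0.0432, 0.0636 and 0.0492 in the middle-aged and 0.0658, 0.0348, 0.302 and 0.234 in the aged livers. Every later liver was below every young one. The middle-aged livers were close together, while among aged livers replicates 3 and 4 had ratios several times those of replicates 1 and 2. This split is also that of the spike-in sets, so a difference between sets and one between animals cannot be told apart among aged livers.

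Aged livers differed from one another in which members were high. Replicate 1 had the highest aged level of 13 of the 15 most abundant members and replicate 4 that of the other 2, Mup15 and Mup17. Replicate 3 had the lowest level of 11 members, but replicate 2 had the lowest levels of Mup9, Mup15, Mup17 and Mup18. In replicate 3 the total central level was 18631 normalised counts, of which 2529 were Mup17, and in replicate 2 it was 34905, of which 687 were Mup17.

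**Figure D4:**
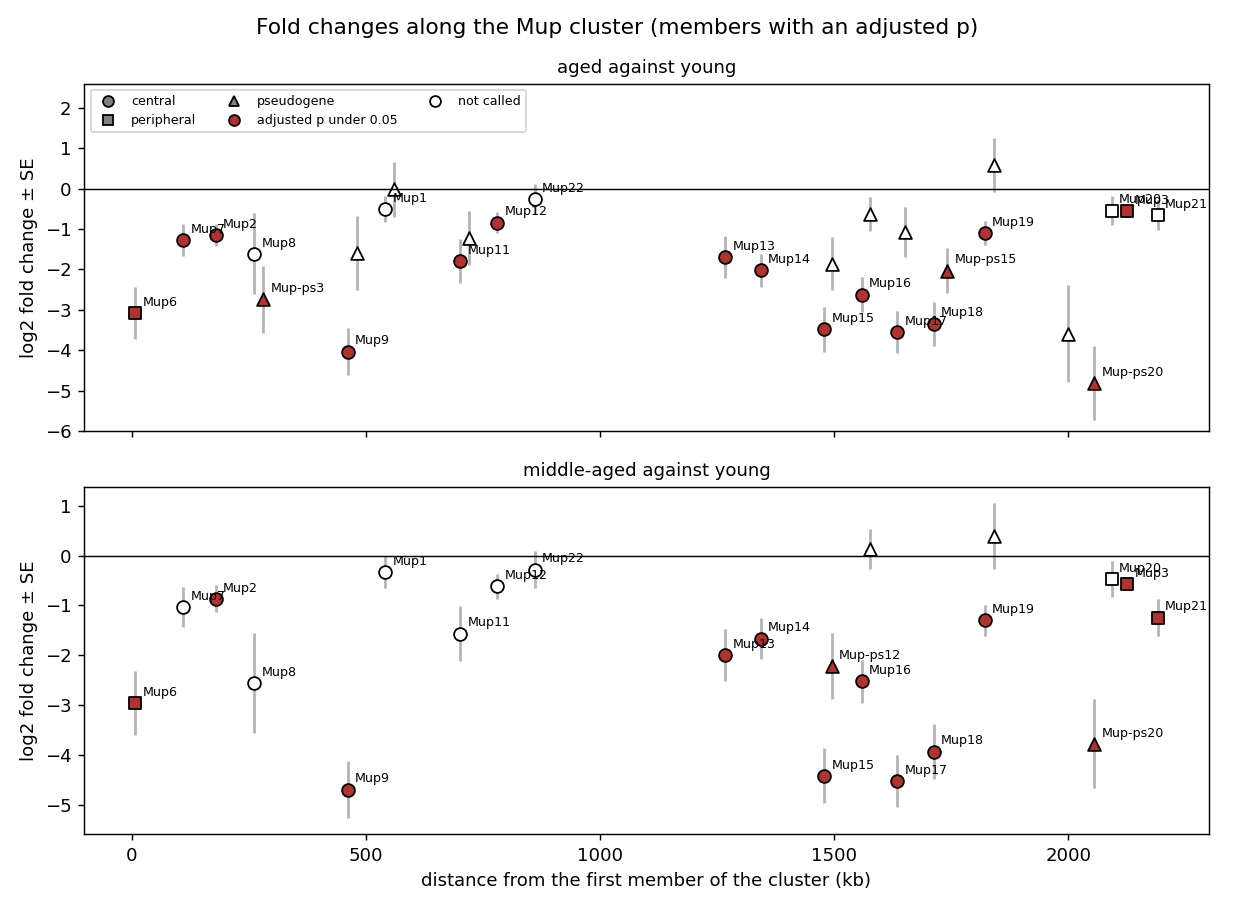
Log2 fold change ± SE (vertical axis) of members with an adjusted p against the distance of their start from the first member of the chromosome 4 cluster (kb), for aged (top) and middle-aged (bottom) against young livers. Circles are central members, squares peripheral members and triangles pseudogenes, and red marks an adjusted p under 0.05. The neighbours Mup15, Mup16, Mup17 and Mup18 lie between -2.52 and -4.52, and the low values of Mup9, Mup6 and Mup-ps20 lie elsewhere in the cluster.

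Along the chromosome, the decreases were not even. Log2 fold changes in aged livers were -1.27, -1.14, -1.61, -4.03, -0.50, -1.79 and -0.84 for Mup7, Mup2, Mup8, Mup9, Mup1, Mup11 and Mup12 in the first part of the central array. In the second part they were -1.69, -2.02, -3.48, -2.62, -3.55, -3.34 and -1.10 for Mup13, Mup14, Mup15, Mup16, Mup17, Mup18 and Mup19. The 4 consecutive coding genes from Mup15 to Mup18 had larger decreases than their flanking neighbours Mup14 and Mup19, and Mup9 had a decrease of that size between Mup8 and Mup1. The difference between positions was not tested. Of the 27 other genes within 500 kb of the cluster or inside it, DESeq2 called 0 in any of the 3 comparisons, with 17, 16 and 15 tested. Over all genes tested, 1.71% were called lower and 1.87% higher in aged against young livers. In middle-aged against young livers these were 2.9% and 3.51%, and 1.14% were called between the later ages. With so few genes tested, 0 calls lie near these shares and do not set the neighbours apart from other genes. At an unadjusted p under 0.05 there were 3, 4 and 1 neighbours, and edgeR called 0 of 16 in each, with 3, 4 and 2 at an unadjusted p under 0.05. With edgeR 0.645% and 0.95% of all genes were called lower in aged and middle-aged against young livers, and 0.107% were called between the later ages. The median log2 fold change of these neighbours was 0.09 in aged and -0.10 in middle-aged against young livers.

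**Figure D5:**
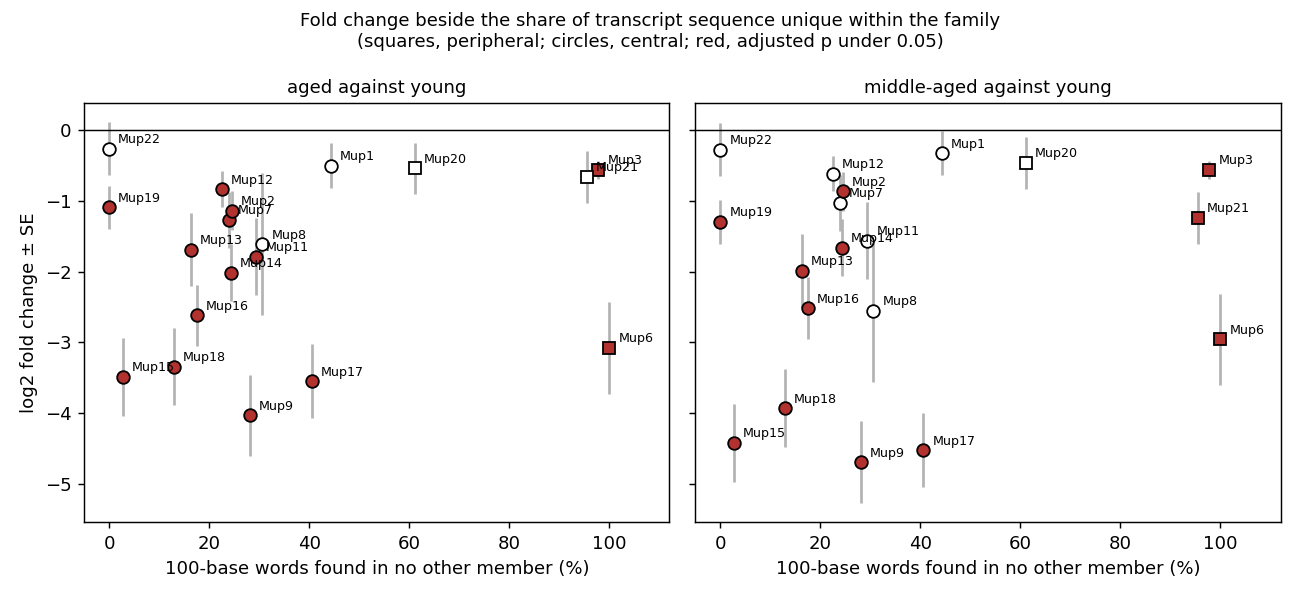
Log2 fold change ± SE (vertical axis) of 19 coding members against the percentage of their 100-base words that occur in no other member (horizontal axis), for aged (left) and middle-aged (right) against young livers. Squares are peripheral members, circles central members and red marks an adjusted p under 0.05; the largest decreases are found at 2.66% (Mup15), 12.9% (Mup18), 28.1% (Mup9) and 40.6% (Mup17).

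Large and small decreases both occurred among members with much shared sequence. Mup15, with 2.66% of its 100-base words unique, decreased by 3.48 on the log2 scale in aged livers, and Mup19, with 0%, decreased by 1.10. Among members with little shared sequence, Mup6 (100% unique) decreased by 3.07 and Mup3 (97.8%) by 0.56. At 150 bases, the length of a read, unique words made up 9.28% of Mup15, 13.7% of Mup18, 59.6% of Mup17 and 0.765% of Mup19.

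The pseudogenes held few counts. Their mean over the 12 livers ranged from 0.149 to 60.1 normalised counts, 6 of 22 were under 1, and 5 reached 10. The summed pseudogene level was 413, 476, 243 and 226 in the young, 64.5, 89.8, 101 and 82.2 in the middle-aged and 89.3, 42.4, 88.3 and 129 in the aged livers, without overlap between the young and the later livers. Mup-ps20 (chromosome 4, 62012412 to 62014857), which contributed 47.9% of the young pseudogene total, had 183, 278, 99.5 and 90.8 in the young, 1.99, 8.98, 18.5 and 18.0 in the middle-aged and 18.1, 0.963, 0.874 and 3.58 in the aged livers. Its log2 fold changes were -4.81 (SE 0.91, adjusted p = 4.58e-05) and -3.77 (SE 0.89, adjusted p = 0.00165). The first was the largest decrease of any tested member in aged livers. Its aged call was kept under 19 of 20 alternatives and lost with replicates 1 and 2 alone. The middle-aged call was kept under 17 and lost with replicates 3 and 4 alone and without middle-aged replicate 1 or 4. All 100-base words of Mup-ps20 were unique within the family. Mup-ps3 fell from 21.4 ± 10.2 to 3.14 ± 4.01 and Mup-ps15 from 15.2 ± 4.64 to 3.77 ± 0.987 in aged livers, and Mup-ps12 from 31.3 ± 14.6 to 6.72 ± 2.78 in middle-aged livers. All 3 are calls on low counts, kept under 10, 9 and 10 of 20 alternatives, and none of the 100-base words of Mup-ps3 was unique. The mean was lower in aged than in young livers for 18 of 22 pseudogenes and lower in middle-aged livers for 19. Mup-ps16, which overlaps the gene Gm13775, was not lower, with log2 fold changes of 0.59 (SE 0.66, adjusted p = 0.748) and 0.40 (SE 0.67, adjusted p = 0.793).

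Promoter sequences were available in RefSeq (GRCm38.p6) for 14 of the 22 coding members, from 250 bases before to 50 after the annotated start. They are shown beside the fold changes of members with nearly the same promoter. Whether those fold changes differ between members was not tested. The 110 bases that end with the TATA element are given 5′ to 3′ for 5 members, all on the minus strand of chromosome 4, with the element TATATAAGG in capitals. The positions are chr4:61595849-61595958 for Mup17, chr4:61439721-61439830 for Mup15, chr4:60139875-60139984 for Mup2, chr4:61674114-61674223 for Mup18 and chr4:62087320-62087429 for Mup3.
Mup17: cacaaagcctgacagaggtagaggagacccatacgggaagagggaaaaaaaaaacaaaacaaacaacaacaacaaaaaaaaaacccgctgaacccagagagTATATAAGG
Mup15: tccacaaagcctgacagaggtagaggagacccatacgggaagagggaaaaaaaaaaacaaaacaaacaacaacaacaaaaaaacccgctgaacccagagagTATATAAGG
Mup2: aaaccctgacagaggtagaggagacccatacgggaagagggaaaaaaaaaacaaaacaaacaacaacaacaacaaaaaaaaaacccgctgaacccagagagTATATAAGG
Mup18: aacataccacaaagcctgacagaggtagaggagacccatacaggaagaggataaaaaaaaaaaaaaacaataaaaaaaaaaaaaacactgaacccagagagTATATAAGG
Mup3: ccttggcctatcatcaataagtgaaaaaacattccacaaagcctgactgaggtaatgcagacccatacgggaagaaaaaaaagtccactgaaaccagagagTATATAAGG

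Apart from insertions and deletions in the adenine-rich stretch, the window of Mup17 matched that of Mup15 at 107 of 107 aligned bases, Mup2 at 106 of 107, Mup18 at 95 of 103 and Mup3 at 68 of 76. Over the whole promoter, Mup17 and Mup2 were identical at 293 of 295 aligned bases and Mup17 and Mup11 at 275 of 276. In aged livers the log2 fold changes of Mup17, Mup15, Mup2 and Mup11 were -3.55, -3.48, -1.14 and -1.79. The element TATATAAGG, chosen after reading these promoters, occurred in 11 of the 14 and in 0.307% of all 32851 promoters of the same length. Of the remaining 3, Mup7, Mup4 and Mup6, the last 2 had TATAAA 27 bases before the start, a motif found in 13.6% of all promoters. The Mup7 sequence ended in the adenine-rich stretch that precedes the element in other central members, so it did not reach that place. Annotated starts were not aligned between members: the element stood at position -31 from the start in Mup9 and at 13 in Mup14.

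Other motifs were searched on both strands. The STAT5 consensus TTCNNNGAA was in 0 of 14 member promoters and in 8.30% of all promoters. The steroid receptor motif AGAACA was in 2 of 14, at 204 bases before the start of Mup3 and 198 before that of Mup21, and in 19.0% of all promoters. The HNF1 motif GTTAAT, and the sites TTATGTAA and TTATGCAA of the PAR bZIP factors, were in none of the 14 and in 7.10%, 0.938% and 0.743% of all promoters.

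Genes that act on Mup transcription were examined next, as a list of 17 that included growth hormone signalling genes, nuclear receptors and hepatocyte transcription factors. In aged livers 1 of 16 tested genes was higher and 0 lower, where 1.87% of all genes tested were called higher, and in middle-aged livers again 1 was higher and 0 lower, against 3.51%. Median log2 fold changes were 0.05 and 0.09, against -0.00030 and 0.0065 over all genes tested. The genes called were Stat5a, at 0.59 (SE 0.17, adjusted p = 0.0261) in aged livers, and Nr3c1, the glucocorticoid receptor, at 0.39 (SE 0.12, adjusted p = 0.0306) in middle-aged livers, neither of which passed in edgeR (adjusted p = 0.0642 and 0.0921). Stat5a, a signal transducer related to STAT5b, had 61.6, 68.8, 87.7 and 87.9 in the young, 79.4, 91.6, 94.5 and 75.2 in the middle-aged and 99.4, 117, 124 and 122 in the aged livers. All aged livers lay above all young ones. Ghr, the growth hormone receptor, had log2 fold changes of 0.12 (SE 0.10, adjusted p = 0.605) and 0.13 (SE 0.10, adjusted p = 0.471). For Stat5b they were 0.23 (SE 0.11, adjusted p = 0.274) and 0.07 (SE 0.11, adjusted p = 0.772). For Zhx2, a regulator of several liver genes, they were 0.06 (SE 0.15, adjusted p = 0.913) and -0.06 (SE 0.15, adjusted p = 0.879). With edgeR 0 of 16 were called in aged or middle-aged against young livers, with 6 and 4 at an unadjusted p under 0.05. In aged against middle-aged livers DESeq2 and edgeR each called 0 of 16, with 3 at an unadjusted p under 0.05 in both.

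Other genes known to be higher in male than in female liver, which respond to the same growth hormone pattern, were taken as a list of 15. Of the 15 tested in aged livers 7 were lower and 0 higher, and of 14 tested in middle-aged livers 6 were lower and 0 higher; median log2 fold changes were -0.95 and -1.11. These counts stand against 1.71% and 2.9% of all genes called lower. Cyp4a12a, a male-predominant fatty acid hydroxylase, had 3530.5, 2682, 3423 and 3226 in the young, 1335, 1417, 1928 and 1292 in the middle-aged and 2212, 1634, 1157 and 1222 in the aged livers, and its log2 fold changes were -1.05 (SE 0.20, adjusted p = 3.45e-05) and -1.11 (SE 0.20, adjusted p = 5.58e-06). Cyp4a12b had -1.35 (SE 0.26, adjusted p = 7.53e-05) and -1.32 (SE 0.26, adjusted p = 1.10e-04). Nudt7, a peroxisomal coenzyme A hydrolase, had -0.95 (SE 0.13, adjusted p = 5.35e-10) in aged livers. Elovl3, a fatty acid elongase, and Cyp7b1, a sterol hydroxylase, had -1.33 (SE 0.23, adjusted p = 2.53e-06) and -1.13 (SE 0.26, adjusted p = 0.00103) in middle-aged livers. With edgeR 3 and 5 genes of the list were called lower, with 13 and 12 of 14 at an unadjusted p under 0.05. Aged and middle-aged livers were not distinguished: DESeq2 called 0 of 14, with 2 at an unadjusted p under 0.05, and edgeR called 0, with 0 at an unadjusted p under 0.05.

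Genes higher in female than in male liver formed a list of 18, of which 16 had a count and 1, Cux2, also stood in the list of regulators. In aged livers 4 of 8 tested genes were higher and 0 lower, and in middle-aged livers 1 of 6 was higher, Acot3, with 0 lower; edgeR called 1 and 0, with 4 of 6 at an unadjusted p under 0.05 in each. Over all genes tested 1.87% and 3.51% were called higher. Cyp2b9, Cyp2b13 and Acot3 had means of 3.75, 0.265 and 2.26 normalised counts in young livers and passed the filter on low counts through livers of later ages, so the filter set their direction. Cyp2b9, a female-predominant cytochrome P450, had 12.7, 1.27, 0 and 0.976 in the young, 13.9, 0.898, 1.77 and 1.0 in the middle-aged and 1.0, 2.89, 629 and 398 in the aged livers. Aged replicates 3 and 4 were far above the other 10 livers. Its log2 fold change of 6.10 (SE 1.73, adjusted p = 0.0198) rests on those 2 livers, which belong to the same spike-in set. Abcd2, a peroxisomal transporter, had 10.6, 5.09, 3.55 and 36.1 in the young, 61.6, 91.6, 27.4 and 105 in the middle-aged and 14.1, 50.1, 308 and 156 in the aged livers, and was likewise highest in aged replicates 3 and 4. Prlr, the prolactin receptor, had 380, 444, 463 and 633 in the young, 778, 861, 533 and 733 in the middle-aged and 636, 1167, 1444 and 1133 in the aged livers, with a log2 fold change of 1.19 (SE 0.23, adjusted p = 6.77e-05) in aged livers. The middle-aged value of 0.60 (SE 0.23, adjusted p = 0.0943) did not pass the threshold. Acot3, an acyl-CoA thioesterase, had log2 fold changes of 3.71 (SE 0.90, adjusted p = 0.00312) and 2.89 (SE 0.90, adjusted p = 0.0296), on levels of at most 64.7 counts, and is named after its values were seen. In edgeR only Prlr passed, and in aged against middle-aged livers DESeq2 called 0 of 4 tested, with 3 at an unadjusted p under 0.05, and edgeR 0 of 6, with 2.

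As a comparison with other proteins that hepatocytes secrete, 28 genes for plasma proteins were taken. Of these 1 was lower and 0 higher in aged livers, 2 were lower and 0 higher in middle-aged livers, and the median log2 fold changes were -0.0084 and -0.12. Over all genes tested 1.71% and 2.9% were called lower. At an unadjusted p under 0.05 DESeq2 had 11 and 6 of the 28, and 14 and 20 of them had a log2 fold change below 0. With edgeR 0 of 28 were called in either comparison, with 5 and 4 at an unadjusted p under 0.05. Of all genes, edgeR called 0.645% and 0.95% lower. Serpina3k, a protease inhibitor gene, had 158331, 171567, 155536 and 122209.9 in the young, 103749, 80738, 100599 and 78757 in the middle-aged and 117011, 107733, 63244 and 81542 in the aged livers, with log2 fold changes of -0.72 (SE 0.18, adjusted p = 0.0048) and -0.74 (SE 0.18, adjusted p = 0.00245). Fgg, a fibrinogen chain, had -0.36 (SE 0.12, adjusted p = 0.0357) in middle-aged livers, and Fga, another, rose from middle-aged to aged livers, at 0.48 (SE 0.13, adjusted p = 0.0344). None of these 3 passed in edgeR.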

How the data were processed

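Liver RNA of 12 mice, 4 per age, was sequenced. The authors deposited 1 table of raw read counts for 53465 genes and 92 spike-ins. Per the labels, the submitters' processing notes name STAR 2.5.2b, SAMtools 1.9, featureCounts, R 3.6.3, edgeR 3.28.1, DESeq2 1.26.0 and the builds mm10 and GRCm38. The library kit keeps strand; how the counting treated strand and reads that map to several places is not given in the sources used here. Symbols were taken from GENCODE M21.

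Genes with at least 1 count (28449, spike-ins left out) were fitted with DESeq2 1.42.0 in R 4.3.3 on age, with Benjamini-Hochberg adjustment over all genes tested and a threshold of 0.05; genes without an adjusted p count as not tested. edgeR 4.0.16 (quasi-likelihood), other scalings, a filter (at least 10 counts in at least 4 livers), no independent filtering, a replicate block and fits without single livers were the alternatives. Totals are sums of normalised counts, without a test. All scripts that fitted models were tested on simulated data. Replicates are separate animals. Same-numbered livers did not deviate together (correlations between -0.303 and 0.159), so the numbers were not taken as pairs.

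Members whose mean over the 12 livers reached 100 normalised counts were described singly, the rest by counts and by name where called. Of each list Ghr, Stat5b and Zhx2, and up to 3 called genes per direction and pair of ages with a mean of at least 50, were named; a further gene of the planned lists is not reported here. Members, lists and tests were chosen with earlier results of these data known. Shared sequence and coding identity were computed from the M21 transcripts, with counting error only in intervals and a floor of 3 counts for a count of 0.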

Additional observations from a re-analysis of the deposited data

Results flagged for a closer look

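A liver stood apart from the other 3 of its age, by Dixon's criterion at the 95% level, for 3 of the 57 combinations of member or total and age that were examined. Chance alone would give about 2.85. Mup12 had 3137 normalised counts in young replicate 4 and between 4295 and 4399 in the other young livers. Mup16 had 1377 in middle-aged replicate 3 and between 991 and 1049 in the other middle-aged livers. Mup21 had 4229 in aged replicate 1 and between 1493 and 1739.5 in the other aged livers.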

How the results depend on the processing

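Members called were 9 with edgeR and 9 with replicates 1 and 2 alone in aged against young livers (17 reported), 9 without the 2 libraries with most genes detected in middle-aged against young livers (14 reported), and 5 with replicates 3 and 4 alone in aged against middle-aged livers (0 reported). Over the 3 ages edgeR called 10 and the fit without those 2 libraries 12 (20 reported). Over all genes tested, these called 234 of 12099 and 464 of 13979, against 865 of 12430 as reported. The middle-aged fit without those 2 libraries called 271 of 12609 genes, against 727 of 11333. Leaving out single livers gave 10 to 21, 8 to 18, 0 to 2 and 11 to 23 calls. The same replicate number in each age marks different animals, and a fit with the replicate block called 15, 13, 0 and 15 members, so no count moved by more than 1.5 times; in aged against young livers it lost Mup-ps3 and Mup-ps15 (adjusted p = 0.069 and 0.0948), and in middle-aged against young livers it lost Mup2 and Mup21 (0.093 and 0.0556) and gained Mup11 (0.0353). Here the cause was not tested for any of these changes.

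With spike-in scaling the log2 differences from young livers, aged then middle-aged, were 0.16 and 0.64 for the family, 0.65 and 1.06 for the peripheral, -0.71 and -0.029 for the central and -0.74 and -0.37 for the pseudogene total. With replicates 1 and 2 alone, middle-aged minus young was -1.20 for the family and -2.03 for the central total, the pseudogene total changed by -2.85 and -2.54, and aged minus middle-aged turned to 0.25 (family), 0.24 (central) and 0.24 (peripheral). With replicates 3 and 4 alone, middle-aged minus young was -0.68 (family) and -1.20 (central), the pseudogene total changed by -1.14 and -1.37, and its aged minus middle-aged difference turned to 0.23. Without single livers, the family total ranged from -1.35 to -0.88 (aged minus young), -1.09 to -0.86 (middle-aged minus young) and -0.41 to 0.06 (aged minus middle-aged). The central total ranged from -2.33 to -1.64, -1.81 to -1.5 and -0.72 to -0.02, the peripheral total from -0.82 to -0.43, -0.63 to -0.46 and -0.30 to 0.09, and the pseudogene total from -2.22 to -1.68, -2.12 to -1.77 and -0.26 to 0.27. Aged minus middle-aged changed sign without aged replicate 3 for the family (0.059) and peripheral (0.088) totals, and for the pseudogene total without aged replicate 2 (0.27) or middle-aged replicate 3 (0.05).

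For the 15 most abundant members, 342 of 400 repeats of a called difference kept their direction and call and 58 kept only the direction. Of 500 repeats of an uncalled difference, 476 stayed uncalled and 23 passed with the same sign. The remaining 1 passed with the opposite sign, Mup8 in aged against middle-aged livers with replicates 3 and 4 alone (-3.10, main value 0.94). Uncalled repeats of aged against middle-aged livers also changed sign for several members, such as Mup11 (up to 0.77, main value -0.23). At 8124312 to 10527159 counts per liver, counting error is small for the abundant members, and members under 10 counts could mostly not be tested.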
